A study of Aspergillus nidulans with 24 samples.

Results

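In the filamentous fungus Aspergillus nidulans, 37 of 10631 measured genes had much less RNA after 8 h than after 2 h in maltose medium in the parental strain A773, and not in any of 3 recombinant strains. Levels are the authors' FPKM values, which count reads per length of gene and per total of the library. The genes were chosen on the mean of log2(FPKM + 1) over the 3 libraries of each strain and time. The rule asked for 8 h minus 2 h of −1.2 or lower in A773 and above −0.5 in each of AbfA, BglC and 1542. All 37 passed the filter of the tests, which kept genes reaching 1 FPKM in 3 or more libraries. Because the rule used the change with time of all 4 strains, those changes are given as a description and carry no test.

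The recombinant strains each made 1 introduced enzyme. AbfA made a GH51 alpha-arabinofuranosidase, BglC a GH3 beta-glucosidase and 1542 a thermophilic GH5 mannanase. A773, which the labels also call wild type, carries pyrG89, wA3 and pyroA4. All 4 strains grew as mycelium on glucose at 37 °C and then received 2% maltose in place of it, since maltose activates the promoter of the introduced genes. Mycelium of each strain was taken after 8 h and after 2 h in 3 biological replicates, which gave 24 libraries in 8 groups. The labels mention pyridoxine, uracil and uridine as supplements given as needed, without saying which strain received which. They do not say whether a recombinant strain was 1 clone, and the marker alleles of the recombinant strains are not given in them.

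Depth ran from 7140121 to 32309717 reads per library, recovered from the steps of the FPKM values, and a single read in 1 kb of gene was worth 0.031 to 0.1401 FPKM. Each introduced gene ran at 695 FPKM or more in every library of its own strain and at 1.98 FPKM or less in all others. Of 9 marker genes of conidiophores, the stalks that bear asexual spores, all 9 had a mean of at least 1 FPKM in 6 of the 8 groups, although the labels name mycelium. Their summed level was 1970 to 3788 FPKM in AbfA at 8 h and 1316 to 1642 FPKM in AbfA at 2 h, with 85.6 to 1516 and 135 to 2684 FPKM in BglC at these times, and 592 to 796 and 811 to 1716 FPKM in 1542. It was 239 to 272 FPKM in A773 at 8 h and 1491 to 4151 FPKM in A773 at 2 h. The A773 sums at 8 h lay below those of AbfA and 1542 at 8 h and within the range of BglC at 8 h. AN8803 had the highest mean of the 9 markers in every strain at 8 h, at 2342 FPKM in AbfA, 456 FPKM in BglC, 358 FPKM in 1542 and 168 FPKM in A773. Of the 9 markers, limma called 3 lower at 8 h than at 2 h in A773, AN0973, AN10576 and AN0231, and not the other 6 (adjusted p = 0.053 to 0.47). In A773 16.8% of all genes were called lower. In BglC limma called AN0973, AN1937 and AN0231 lower (adjusted p = 0.04, 0.035 and 0.00054), where 10.6% of all genes were. It called no marker in AbfA or 1542. AN8209 averaged 4.21 FPKM in BglC, 2.77 FPKM in 1542 and 7.18 FPKM in A773 at 8 h, and AN1937 and AN0422 also had higher means in A773 than in BglC and 1542. The part of the markers in the results was not tested. In bulk RNA, fewer cells of a type and less RNA per cell cannot be told apart.

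Filamentous fungi secrete enzymes that break polymers into sugars and amino acids, and in Aspergillus the starch enzymes are switched on by maltose and related sugars and held down by glucose. As a culture uses up its food or meets air, A. nidulans turns to asexual sporulation and to secondary metabolites, small molecules made by neighbouring genes that act as a cluster. The gene sclB, which is among the 37, encodes a zinc cluster transcription factor known to promote conidiation and to act on secondary metabolism. Emericellamides are such metabolites, built from a peptide and a polyketide part.

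In the recombinant strains the 37 genes had median 8 h minus 2 h changes of −0.05 in AbfA, −0.19 in BglC and −0.05 in 1542 on the log2(FPKM + 1) scale. The medians of all genes that passed the filter were 0.05, 0.08 and −0.01. The change was above 0 in 18 genes in AbfA, 14 in BglC and 15 in 1542. The rule kept only changes above −0.5 in these strains, so no direction is read from these counts. The 8 h libraries lay wholly above those of 2 h in 4 genes in AbfA, 3 in BglC and 3 in 1542, and wholly below in 4, 8 and 3. The share of all genes with such a separation was not computed, so nothing is read from these counts either. In A773 the 37 changes ran from −2.80 to −1.21, with a median of −1.59, while the median of all genes was 0.13. The 3 A773 libraries at 8 h lay below all 3 at 2 h in each of the 37 genes. The limma test called 36 of the 37, all but AN10165, lower at 8 h in A773, where 16.8% of all genes were called lower, which only restates the rule. In the recombinant strains it called AN10420 higher and AN2017 lower in AbfA (1.40 ± 0.49 and −0.41 ± 0.11, log2, SE, adjusted p = 0.049 and 0.012), where 10.9% and 8.14% of all genes were called higher and lower. In BglC it called AN7568 and AN0901 lower (−0.47 ± 0.16 and −0.46 ± 0.15, adjusted p = 0.025 and 0.023) and 0 higher, where 10.6% and 21.7% were called lower and higher. In 1542 it called AN6370 lower (−0.42 ± 0.13, adjusted p = 0.031) and 0 higher, where 9.18% and 8.62% were. The rule limits these changes too, so nothing is read from the calls. With each recombinant strain in the place of A773, the same rule found 5 genes in AbfA, 30 in BglC and 18 in 1542, where 166, 209 and 214 genes of the whole table reached −1.2. In A773 413 genes reached −1.2, and 19 did so in all 4 strains.

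**Figure D1:**
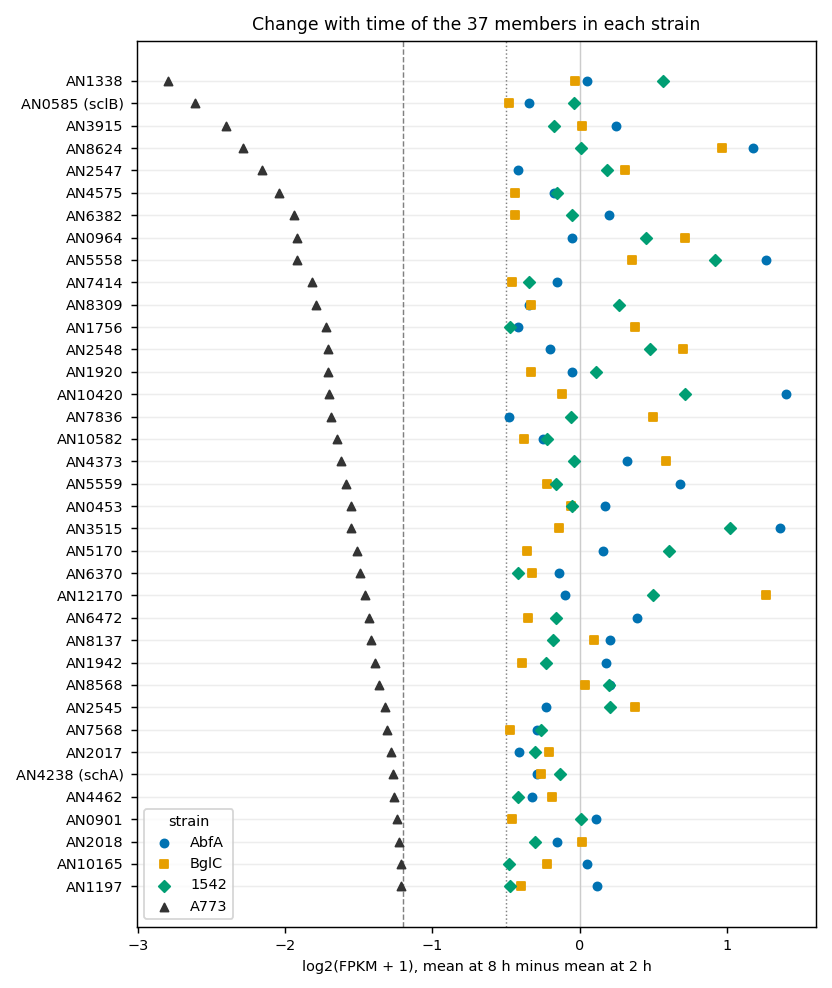
Each row is 1 of the 37 genes and each symbol the 8 h minus 2 h difference in mean log2(FPKM + 1) of 1 strain, from 3 libraries a time; the dashed line marks −1.2 and the dotted line −0.5, the thresholds of the rule. The symbols of the recombinant strains run from −0.48 to 1.40, and the A773 triangles from −2.80 to −1.21.

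The plot of changes by gene shows that the A773 falls of the chosen genes form a gradual series. Genes on either side of the threshold, of which the plot holds only the chosen ones, left no gap at it. Just inside it lay AN2018 (−1.234), AN10165 and AN1197 (−1.211 each), and just outside AN0639 (−1.197), AN2956 (−1.184) and AN2549 (−1.166). On the side of the recombinant strains, AN10165 (−0.48 in 1542), AN7836 (−0.48 in AbfA) and sclB (−0.48 in BglC) were the last to be kept. AN1884 (−0.52 in BglC), AN10318 (−0.53 in AbfA) and AN2062 (−0.53 in BglC) were the first to be left out. The choice is therefore a cut through a continuum. Of the 37 genes, 36 were found in the RefSeq table of ASM1142v1, and 2 of these had a symbol there, sclB and schA. They lay on 7 of the chromosomes, with 8 on chromosome VII and 7 on chromosome VIII. Promoter and protein sequences were not analysed here.

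Regulators come first. Of AN0585, sclB, AbfA held 37.5, 30.8 and 35.6 FPKM at 8 h and 31.5, 47.3 and 56.2 FPKM at 2 h. BglC held 20.2, 16.2 and 15.4 FPKM at 8 h and 30.9, 20.8 and 22.1 FPKM at 2 h. In 1542 the levels were 40, 38.0 and 38.4 FPKM at 8 h and 44.8, 42.3 and 33.4 FPKM at 2 h. These changes with time were small, at −0.48 to −0.04 on the log2(FPKM + 1) scale. A773 held 6.76, 8.11 and 6.83 FPKM at 8 h, against 41.3, 47.2 and 60.2 FPKM at 2 h, a change of −2.61 and the second deepest of the 37. Every recombinant library at 8 h was thus above every A773 library at 8 h, AbfA and 1542 by more than BglC. BglC had less sclB RNA at both times than AbfA or 1542, with no overlap of the libraries at either time. Of 11 other regulators of conidiation in a list, AbfA had 0 called between 8 h and 2 h, where 8.14% of all genes were called lower and 10.9% higher. BglC had 4 of them lower and 2 higher at 8 h (6 and 2 after scaling between libraries), where 10.6% and 21.7% of all genes were. In 1542 there were 1 lower and 1 higher (0 and 1 after scaling), where 9.18% and 8.62% were. A773 had 4 lower and 2 higher, where 16.8% and 31.4% of all genes were, and 7 lower and 2 higher after scaling. The shares of all genes are from the fit without scaling, and none were computed after it, so the scaled counts have no matching background. The conidiophore markers named at the start include 3 of these regulators.

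AN4238, schA, encodes a protein kinase related to Sch9, a nutrient-signalling kinase of budding yeast. AbfA stood at 133, 122 and 132 FPKM at 8 h and 154, 158 and 161 FPKM at 2 h. BglC was highest of the recombinant strains, with 172, 207 and 190 FPKM at 8 h and 222, 224 and 233 FPKM at 2 h. The strain 1542 was lowest, with 101, 99.5 and 115 FPKM at 8 h and 124, 128 and 95.3 FPKM at 2 h. The changes in AbfA, BglC and 1542 were thus −0.29, −0.26 and −0.13 on the log2(FPKM + 1) scale. In A773 the change was −1.27, with 93.4, 86.6 and 79.0 FPKM at 8 h, against 231, 208 and 191 FPKM at 2 h. At 2 h the BglC and A773 libraries overlapped, whereas at 8 h A773 lay below all libraries of the recombinant strains.

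Among the metabolite genes, AN2545, AN2547 and AN2548 lie in a row on chromosome VII with AN2546 and AN2549, the range entered as the emericellamide cluster in a list drawn up from general knowledge of A. nidulans. The RefSeq table gives these genes no name. In AbfA, AN2547 stood at 33.4, 24.8 and 23.1 FPKM at 8 h and 22.1, 42.7 and 49.2 FPKM at 2 h. BglC had 27.7, 21.2 and 19.5 FPKM at 8 h and 24.7, 13.8 and 16.9 FPKM at 2 h. In 1542 it stood at 35.1, 34.7 and 39.8 FPKM at 8 h and 32.7, 36.5 and 26.7 FPKM at 2 h. The times overlapped in each recombinant strain. The changes of the 3 genes were −0.42 to −0.20 in AbfA, 0.31 to 0.70 in BglC and 0.19 to 0.48 in 1542 on the log2(FPKM + 1) scale, so the direction of the small changes followed the strain and not the gene.

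In A773, AN2547 had 6.16, 11.0 and 8.44 FPKM at 8 h, against 37.7, 51.0 and 34.6 FPKM at 2 h. AN2548 had 9.00, 18.1 and 10.1 FPKM at 8 h, against 38.8, 50.1 and 35.6 FPKM at 2 h. AN2545, at a lower level, had 1.26, 1.63 and 1.76 FPKM at 8 h, against 5.21, 6.64 and 4.33 FPKM at 2 h. All 3 genes were low in each A773 library at 8 h, with changes of −2.16, −1.71 and −1.32 for AN2547, AN2548 and AN2545. No recombinant library at 8 h was as low in AN2547 as any A773 library at 8 h.

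The other genes of the row were not chosen. In AbfA, BglC and 1542 the changes of AN2549 were −0.25, 0.37 and 0.26, and none was called (limma adjusted p = 0.55, 0.31 and 0.54). It missed the threshold in A773, where it averaged 68.4 ± 6.50 FPKM at 8 h and 156 ± 29.9 FPKM at 2 h (SD, n = 3 libraries each). Its A773 change of −1.17 ± 0.27 (log2, SE) was called by limma across all genes (adjusted p = 0.0014). AN2546 stayed below 0.3 FPKM on average in every group and was not tested. Of the 4 genes of the list that were tested, 0 were called in any recombinant strain and 4 were called lower at 8 h in A773, but 3 of these 4 were chosen for it.

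**Figure D2:**
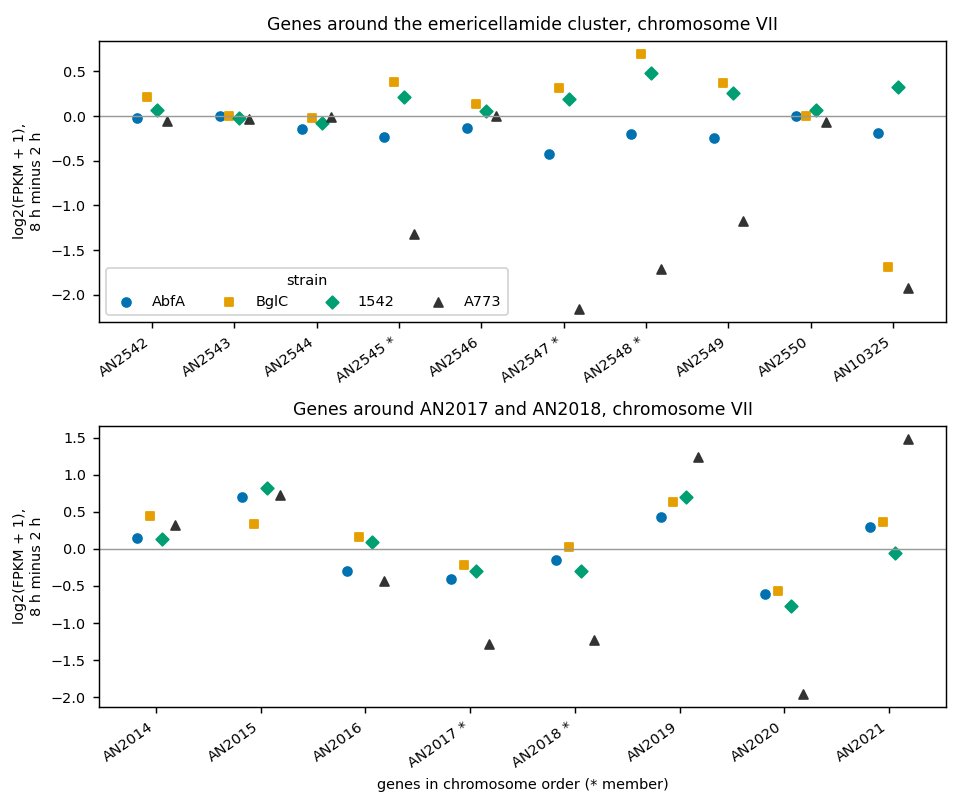
Change with time, 8 h minus 2 h in mean log2(FPKM + 1), of genes in their order along chromosome VII around the emericellamide cluster (top) and around AN2017 and AN2018 (bottom), with 1 symbol per strain and a star on each chosen gene. In A773, AN2545, AN2547, AN2548 and AN2549 lie between −2.16 and −1.17 with AN2546 near 0 among them. In the same strain, AN2017 and AN2018 lie between AN2016, which changed less, and AN2019, which changed the other way. AN2020, beyond AN2019, fell by more than AN2017 and AN2018.

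The plot of changes along the chromosome shows the genes beside each group. Beyond the 5 genes of the emericellamide list, AN2542 to AN2544 and AN2550 were at or near 0 FPKM, so they show no edge of the group. AN10325, 1 gene further, was lower at 8 h in A773 (−1.93) and in BglC too (−1.69), and so was not chosen. Around AN2017 and AN2018, AN2019 had a change of 1.24 in A773. AN2020, which follows it, had changes of −0.77 to −0.57 in the recombinant strains and −1.96 in A773. Whether the authors' counts used the strand is not known, so reads of overlapping neighbours may not be separated.

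AN2017 and AN2018 are adjacent on chromosome VII and were entered in a list of starch and maltose use. AbfA held 68.6, 65.5 and 61.3 FPKM of AN2017 at 8 h and 77.4, 86.7 and 98.3 FPKM at 2 h. BglC held 68.6, 85.5 and 83.7 FPKM at 8 h and 93.1, 88.3 and 92.8 FPKM at 2 h. In 1542 there were 93.8, 90.5 and 81.3 FPKM at 8 h and 120, 92.7 and 117 FPKM at 2 h. The changes were −0.41, −0.21 and −0.30 in these strains. In A773, AN2017 had 61.4, 63.5 and 60.2 FPKM at 8 h, against 153, 157 and 144 FPKM at 2 h. AN2018 had 10, 13.3 and 10 FPKM in A773 at 8 h, against 27.6, 31.1 and 23.7 FPKM in A773 at 2 h. The A773 changes were −1.28 and −1.23 on the log2(FPKM + 1) scale. No recombinant library of AN2017 at 2 h was as high as any A773 library at 2 h, so for this gene A773 stood apart at the earlier time. At 8 h AbfA overlapped A773, while BglC and 1542 did not. AN2018 was alike, with 10.4 to 21.4 FPKM in the recombinant libraries at 2 h, all below the A773 libraries at 2 h.

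The starch and maltose list held 9 genes, all tested. AbfA had 2 genes of the list called lower and 1 higher at 8 h (3 and 0 after scaling between libraries), where 8.14% and 10.9% of all genes were. BglC had 4 lower and 1 higher (5 and 1 after scaling), where 10.6% and 21.7% of all genes were. In 1542 there were 0 lower and 1 higher, where 9.18% and 8.62% of all genes were. In A773 8 were called lower and 0 higher (limma, adjusted over all genes), where 16.8% and 31.4% of all genes were, and 2 of the 8 were chosen for it. The shares of all genes are again from the fit without scaling. There AN3388 changed by −5.31 ± 0.64, AN3402 by −3.04 ± 0.46, agdC, an alpha-glucosidase gene (AN0941), by −2.90 ± 0.20 and AN8953 by −2.10 ± 0.25 (log2, SE). AN7402 and AN2016 changed less, by −0.80 ± 0.26 and −0.43 ± 0.11. AN11143 was not called (−0.09 ± 0.20, adjusted p = 0.72). These genes were not chosen either because the fall also appeared in a recombinant strain or because it was too small in A773.

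AN5558 was entered in a list of proteases and autolytic hydrolases, enzymes by which fungi feed on protein and on their own hyphae. AbfA had 354, 262 and 547 FPKM at 8 h and 97.9, 199 and 182 FPKM at 2 h. BglC was high at both times, with 1669, 803 and 990 FPKM at 8 h and 1478, 750 and 568 FPKM at 2 h. The level in 1542 was 226, 639 and 261 FPKM at 8 h and 272, 111 and 182 FPKM at 2 h. The changes in AbfA, BglC and 1542 were thus upward, at 1.27, 0.36 and 0.92 on the log2(FPKM + 1) scale, and the libraries of the times overlapped in BglC and 1542. In A773 the change was −1.92, with 131, 210 and 230 FPKM at 8 h, against 565, 578 and 1070 FPKM at 2 h. Replicate 1 of BglC was the highest library of its group at both times, and its conidiophore markers were the highest of BglC too (1516 FPKM at 8 h and 2684 FPKM at 2 h). The neighbour AN5559, which was also chosen, was far lower, with 1.8, 1.60 and 0.868 FPKM in A773 at 8 h, against 5.70, 4.67 and 8.75 FPKM in A773 at 2 h. Of the 6 genes of the list, 0 were called in AbfA and in 1542. In BglC 3 were called lower and 0 higher, where 10.6% and 21.7% of all genes were. In A773 4 were called lower and 1 higher, where 16.8% and 31.4% of all genes were, and the call of AN5558 follows from the rule. The list's largest change in BglC was in AN4871, at −2.38 ± 0.38 (log2, SE, limma adjusted p = 0.00013). In A773 it was in mep20, a metalloprotease gene that was not chosen, at −5.64 ± 0.55, and this gene changed by −1.45 ± 0.55 in BglC (limma adjusted p = 1.4e-07 and 0.049).

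The other genes with the deepest falls have no name in the RefSeq table. Of AN1338, AbfA held 1247, 705 and 1179 FPKM at 8 h and 749, 1023 and 1211 FPKM at 2 h. BglC held 583, 589 and 480 FPKM at 8 h and 670, 374 and 694 FPKM at 2 h. In 1542 all 3 libraries at 8 h (967, 1178 and 1200 FPKM) were above those at 2 h (753, 700 and 799 FPKM). The times overlapped in AbfA and BglC. A773 held 178, 151 and 155 FPKM at 8 h, against 1173, 1127 and 1077 FPKM at 2 h, and its change of −2.80 on the log2(FPKM + 1) scale was the deepest of the 37. All 9 recombinant libraries at 8 h were thus above the A773 libraries at 8 h, with BglC between A773 and the other two strains.

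AN4575 was the most abundant of the 37. AbfA held 1629, 1296 and 1644 FPKM at 8 h and 1255, 1988 and 1969 FPKM at 2 h. BglC, the highest strain, held 2596, 2192 and 2488 FPKM at 8 h and 3228, 2812 and 3905 FPKM at 2 h. For 1542 the values were 1972, 2332 and 1526 FPKM at 8 h and 2260, 1835 and 2296 FPKM at 2 h. All recombinant libraries held at least 1255 FPKM at either time, and the changes were −0.44 to −0.15 on the log2(FPKM + 1) scale. A773 held 465, 423 and 567 FPKM at 8 h, against 1798, 1961 and 2202 FPKM at 2 h, a change of −2.04. Each A773 library at 8 h was thus below every recombinant library.

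AN6382 had another order of strains. In AbfA it stood at 13.8, 11.1 and 20.9 FPKM at 8 h and 8.88, 16.5 and 13.9 FPKM at 2 h. BglC had 111, 43.3 and 53.2 FPKM at 8 h and 179, 47.6 and 75.7 FPKM at 2 h. In 1542 it stood at 10.5, 20.4 and 8.84 FPKM at 8 h and 16.1, 11.4 and 11.7 FPKM at 2 h. BglC was thus far above the other two recombinant strains at both times. A773 held 13.0, 12.7 and 15.9 FPKM at 8 h, against 52.9, 57.1 and 57.4 FPKM at 2 h. Here AbfA and 1542 lay around the low A773 level of 8 h from 2 h on, and BglC around or above the high A773 level of 2 h. The same absence of a change in time thus came with a low level in 2 strains and a high level in 1.

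**Figure D3:**
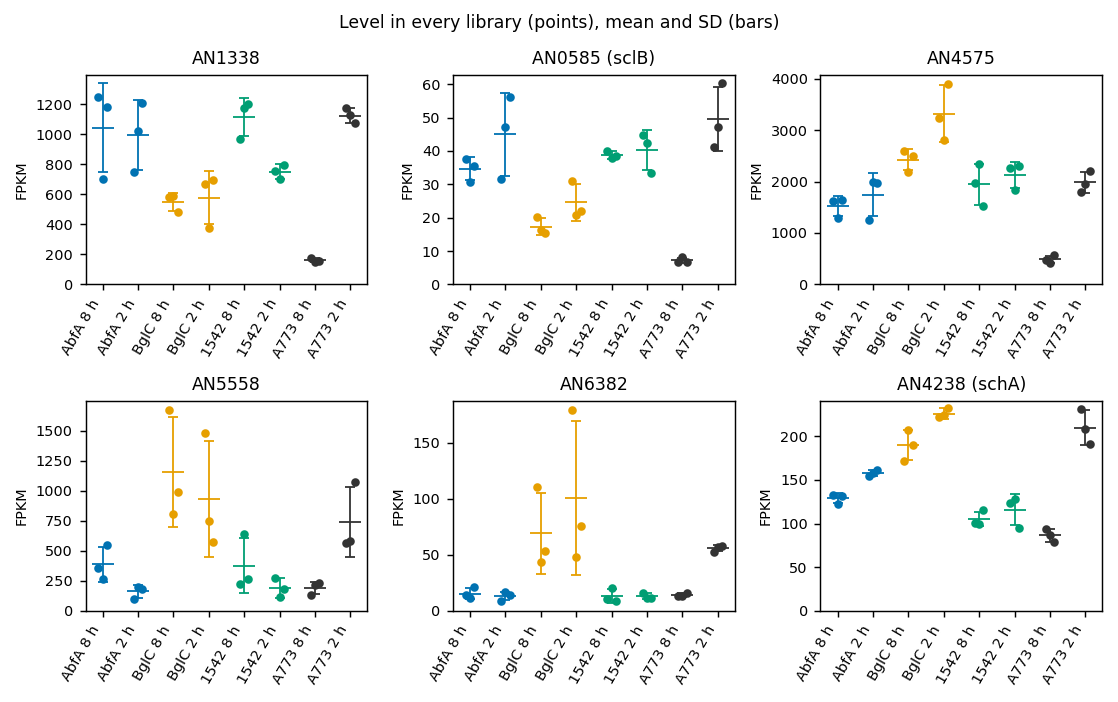
FPKM of 6 chosen genes in every library, by strain and time, with points for libraries and bars for the mean and SD of 3. AN1338, sclB and AN4575 are lowest in A773 at 8 h, whereas AN5558 and AN6382 are high in BglC at both times and schA is higher in BglC than in AbfA and 1542.

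The plot of levels by library sets these 6 genes side by side. Of the other genes among the 20 with the deepest fall, AN0964 had 128, 114 and 77.4 FPKM in A773 at 8 h, against 462, 392 and 350 FPKM in A773 at 2 h. AN7836 had 362, 329 and 391 FPKM at 8 h, against 1062, 1372 and 1085 FPKM at 2 h. AN0453 had 48.9, 51.4 and 45.5 FPKM at 8 h, against 143, 134 and 156 FPKM at 2 h. These 3 were abundant genes, and the A773 groups were far apart in each. AN8309, AN1756 and AN1920 were at middle levels. AN8309 had 7.66, 15.1 and 8.08 FPKM at 8 h, against 38.4, 41.8 and 30.4 FPKM at 2 h. AN1756 had 30.8, 44.1 and 15 FPKM at 8 h, against 154, 84.3 and 61.0 FPKM at 2 h. AN1920 had 18.6, 14.4 and 12.7 FPKM at 8 h, against 44.0, 54.3 and 57.0 FPKM at 2 h. AN1756 spread more than 2-fold within each time, and its groups still did not overlap.

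The remaining genes of that set were lower in A773. AN3915 had 0.281, 0.260 and 0.0527 FPKM at 8 h, against 8.76, 7.99 and 1.82 FPKM at 2 h. AN8624 had 1.07, 1.04 and 0.555 FPKM at 8 h, against 8.02, 4.60 and 14.2 FPKM at 2 h. AN4373 had 0.374, 0.0985 and 0 FPKM at 8 h, against 2.96, 1.85 and 2.91 FPKM at 2 h. At such levels the log2(FPKM + 1) scale understates a change. AN7414 had 1.92, 0.776 and 0.903 FPKM at 8 h, against 6.98, 6.01 and 6.79 FPKM at 2 h. AN10582 had 10.6, 6.49 and 3.61 FPKM at 8 h, against 16.3, 15.2 and 43.0 FPKM at 2 h. AN10420 had 1.81, 1.94 and 1.63 FPKM at 8 h, against 11.1, 9.45 and 4.91 FPKM at 2 h. AN10420 lies beside AN3515 on chromosome II, which was also chosen and had 2.22, 1.81 and 1.36 FPKM in A773 at 8 h, against 9.83, 8.06 and 4.43 FPKM in A773 at 2 h. In AbfA both neighbours were higher at 8 h, AN10420 with 15.4, 6.05 and 11.8 FPKM at 8 h and 2.73, 2.79 and 4.72 FPKM at 2 h. Of the 37 genes, 9 had another chosen gene within 3 genes, in the emericellamide row and in the pairs AN2017 and AN2018, AN5558 and AN5559, and AN3515 and AN10420.

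The other chosen genes are described by their A773 levels, from high to low. AN6370 had 141, 145 and 118 FPKM in A773 at 8 h, against 381, 401 and 354 FPKM in A773 at 2 h. AN4462 had 94.3, 111 and 106 FPKM at 8 h, against 241, 255 and 255 FPKM at 2 h. AN7568 had 45.6, 40.3 and 42.5 FPKM at 8 h, against 114, 119 and 91.2 FPKM at 2 h. In these 3 genes the A773 groups lay far apart, and the changes were −1.49, −1.26 and −1.31 on the log2(FPKM + 1) scale. Smaller falls were seen in recombinant strains too. The 8 h libraries of AN7568 lay wholly below those of 2 h in AbfA, BglC and 1542, with changes of −0.29, −0.47 and −0.26. So did those of AN6370 in BglC and 1542 (−0.32 and −0.42) and of AN4462 in 1542 (−0.42). AN6370 in 1542 lay at 143, 122 and 151 FPKM at 8 h, which overlapped A773 at 8 h, while AbfA and BglC held 203 FPKM or more. The genes AN5170, AN1942, AN10165, AN8568, AN1197, AN12170 and AN0901 averaged between 10 and 100 FPKM in A773 at 2 h, with changes of −1.51 to −1.21. AN12170 spread most, with 4.23, 4.04 and 2.46 FPKM in A773 at 8 h, against 21.0, 14.6 and 4.54 FPKM in A773 at 2 h, so its groups nearly met. AN6472 and AN8137 stood below 10 FPKM in every library of the study, with changes of −1.43 and −1.42 in A773.

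At 2 h in A773, 11 of the 37 genes averaged at least 100 FPKM and 10 averaged below 10 FPKM. At 8 h A773 was the lowest of the 4 strains in 32 of the 37 genes, where it was lowest in 19.3% of all genes. At 2 h it was the highest strain in 26, where it was highest in 25.7% of all genes, and in 23 genes it was both. These counts rest on the same libraries as the rule, so they describe the chosen genes and are no separate evidence. At 8 h the difference from A773 had a median of 1.03 in AbfA, 1.25 in BglC and 0.61 in 1542 on the log2(FPKM + 1) scale. It was above 0 in 36, 36 and 34 genes, and the libraries of the 2 strains did not overlap, with A773 lower, in 29, 28 and 18 genes. Shares of all genes were not computed for these differences, so their counts have no background and only describe the chosen genes. At 2 h the medians were −0.53, −0.30 and −0.95, and the difference was above 0 in 2, 11 and 1 genes. The contrast in time thus came from both ends, with A773 lower at 8 h and mostly higher at 2 h, most so in the comparison with 1542 at 2 h.

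**Figure D4:**
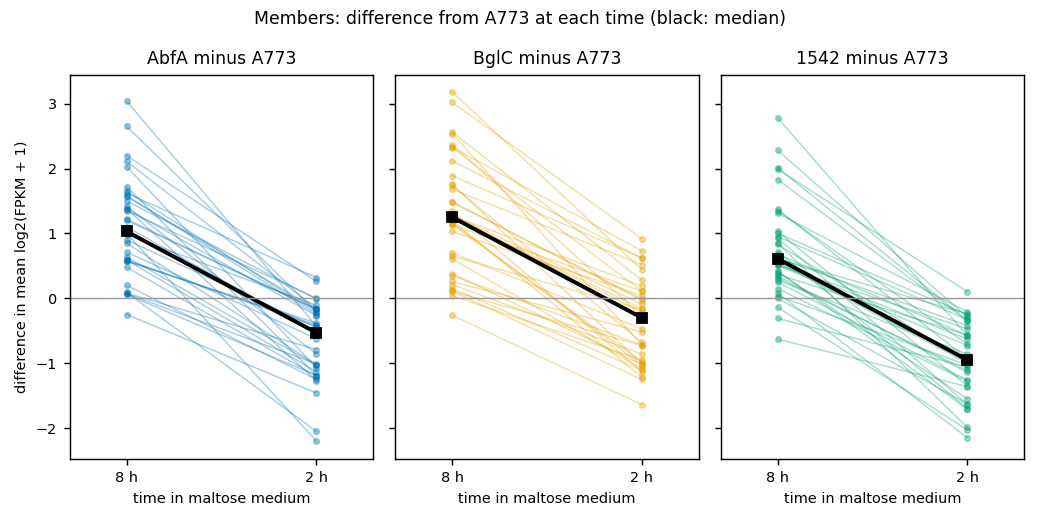
Difference in mean log2(FPKM + 1) of each recombinant strain from A773 at 8 h and at 2 h, with 1 line per chosen gene and the median in black. Medians are 1.03, 1.25 and 0.61 at 8 h and −0.53, −0.30 and −0.95 at 2 h, for AbfA, BglC and 1542, and the slope of each line follows from the rule.

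The plot of differences from A773 shows these differences gene by gene, with most lines above 0 at 8 h and below 0 at 2 h.

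The mean level over both times was compared between the recombinant strains. It was tested with limma over all 24 libraries and adjusted over all 9201 genes tested. Most of the calls involved BglC. BglC was higher than AbfA in 12 of the 37 genes and lower in 11, where 14.8% and 31.9% of all genes were called. Against BglC, 1542 was higher in 11 genes and lower in 20, where 30.8% and 17.5% of all genes were called. The share of the 37 called in favour of BglC was thus above the background in both comparisons (32.4% and 54.1%), and the share called against it was near it (29.7% in each). The backgrounds come from unscaled values, in which BglC was shifted down. The all-gene medians were −0.11 for BglC minus AbfA and 0.09 for 1542 minus BglC, and −0.00 in both after scaling between libraries. Shares of all genes after scaling were not computed, so the readings against background hold for unscaled values only. Against AbfA, 1542 was higher in 3 genes and lower in 5, where 5.64% and 7.61% of all genes were called. Without replicate 1 of BglC at 2 h, a library that takes part through the shared spread, the 8 calls of this comparison came to 14 (3 higher and 11 lower). The 3 higher calls were 2 with no filter on low values, with a replicate block, with voom and with the compared strains alone in the fit.

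Both comparisons with BglC share its libraries, so they are given side by side. BglC was called higher than both AbfA and 1542 in 11 of the 37 genes (29.7%), where 10.7% of all genes were. These were schA, AN5558, AN4575, AN6382, AN0964, AN1756, AN7836, AN0453, AN5170, AN12170 and AN10165. AN6382 differed by 2.35 ± 0.28 for BglC minus AbfA (log2, SE, limma adjusted p = 2.6e-06) and by −2.46 ± 0.28 for 1542 minus BglC (adjusted p = 1.3e-06). AN5558 differed by 2.03 ± 0.32 (adjusted p = 5.1e-05) and −1.99 ± 0.32 (adjusted p = 4.7e-05) in these comparisons. For AN12170 the 1542 minus BglC difference was −2.38 ± 0.38 (limma adjusted p = 4.7e-05), and for schA it was −0.91 ± 0.08 (adjusted p = 7.2e-08).

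BglC was called lower than both AbfA and 1542 in 9 of the 37 genes (24.3%), where 23.0% of all genes were, so this share was near the background of unscaled values. These 9 were sclB, the 3 genes of the emericellamide list, AN1338, AN1920, AN7568, AN4462 and AN0901. AN1920 differed by −1.50 ± 0.15 for BglC minus AbfA (log2, SE, limma adjusted p = 3.5e-07) and sclB by −0.90 ± 0.13 (adjusted p = 2.8e-05). For 1542 minus BglC the differences were 0.87 ± 0.15 for AN1920 and 0.91 ± 0.13 for sclB (limma adjusted p = 8e-05 and 1.9e-05). BglC minus AbfA was −0.68 ± 0.12 for AN2545, −0.60 ± 0.18 for AN2547 and −0.75 ± 0.19 for AN2548 (limma adjusted p = 0.00019, 0.012 and 0.0034). AbfA and 1542 were not called different in any of these 4 genes, with differences of −0.00 to 0.13 (1542 minus AbfA, SE 0.12 to 0.19).

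**Figure D5:**
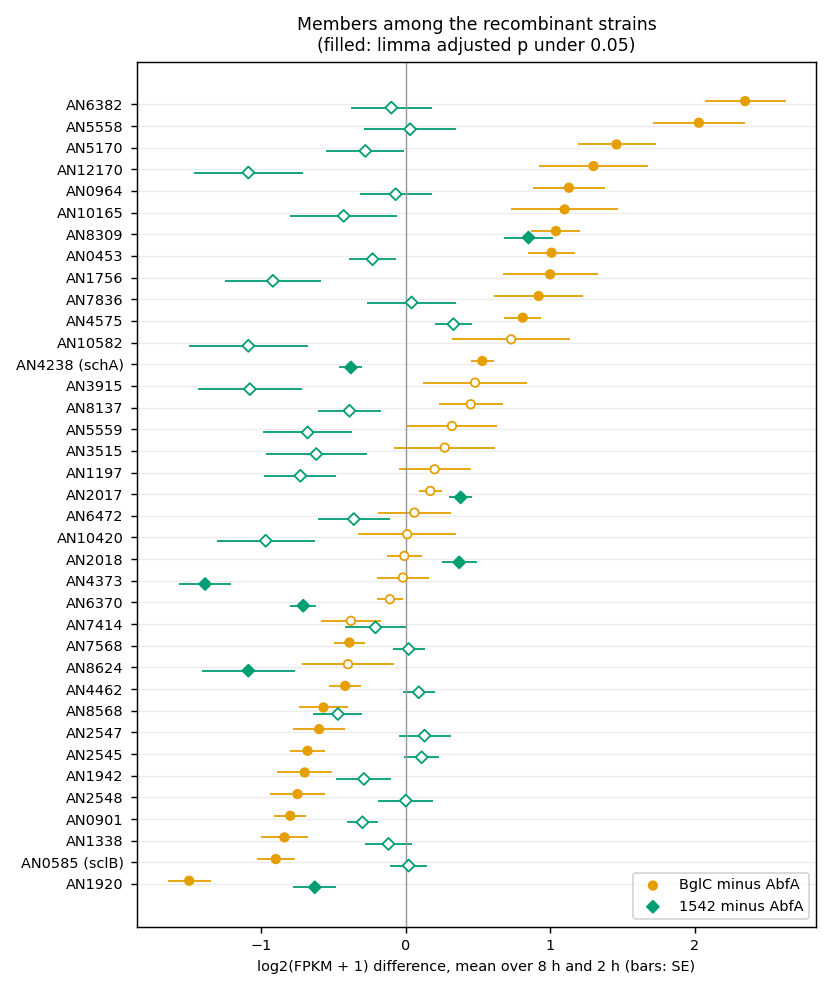
Difference in log2(FPKM + 1), mean over 8 h and 2 h, of BglC and of 1542 from AbfA for each of the 37 genes, with bars for the SE and filled symbols where limma's adjusted p was under 0.05. BglC minus AbfA runs from −1.50 for AN1920 to 2.35 for AN6382, and 1542 minus AbfA from −1.39 for AN4373 to 0.85 for AN8309.

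The plot of differences among the recombinant strains shows that the genes called between 1542 and AbfA were few. AN4373 differed by −1.39 ± 0.18 (log2, SE, limma adjusted p = 7.6e-05) and AN8309 by 0.85 ± 0.17 (adjusted p = 0.0022). AN2017 was higher in 1542 by 0.38 ± 0.08 (limma adjusted p = 0.0029). AN8624 differed by −1.09 ± 0.32 (limma adjusted p = 0.031), a call that ended when any 1 of 6 libraries was left out (adjusted p = 0.052 to 0.088).

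Against A773 the mean over both times contains the low level of A773 at 8 h for which the genes were chosen. The comparisons with A773 are therefore given as a description, and nothing is read from the calls. AbfA was called higher in 12 of the 37 genes and lower in 5, where 19.5% and 20.3% of all genes were called. BglC was called higher in 15 and lower in 5, where 10.9% and 29.7% of all genes were. After scaling between libraries, which put the all-gene median of this comparison at −0.03 in place of −0.14, these were 16 and 2. The strain 1542 was called higher in 7 and lower in 8, where 17.4% and 20.8% of all genes were. The medians of the 37 genes were 0.25, 0.52 and −0.16 for AbfA, BglC and 1542, and those of all genes −0.02, −0.14 and −0.03.

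AN4575 differed from A773 by 0.72 ± 0.13 in AbfA, 1.53 ± 0.13 in BglC and 1.04 ± 0.13 in 1542 (log2, SE), and AN1338 by 1.22 ± 0.16, 0.38 ± 0.16 and 1.10 ± 0.16. The differences of sclB were 0.98 ± 0.13 in AbfA, 0.08 ± 0.13 in BglC and 0.99 ± 0.13 in 1542. The most positive values were 1.31 ± 0.32 in AN8624 for AbfA and 1.97 ± 0.33 in AN1756 for BglC. AN6382 differed by −0.98 ± 0.28 in AbfA and −1.08 ± 0.28 in 1542, and AN1920 by −0.95 ± 0.15 in BglC. The kinase gene schA differed by 0.62 ± 0.08 in BglC and −0.29 ± 0.08 in 1542. These values average the differences at 8 h and at 2 h and rest on the same libraries.

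Spread within a group was largest in BglC at 2 h, where 12 of the 37 genes differed 3-fold or more between the lowest and the highest library. Replicate 1 of that group was the highest in 22 genes, and the lowest in 10. In AbfA at 2 h, replicate 1 was the lowest library in 27 genes, and in AbfA at 8 h replicate 2, the shallowest of all libraries, in 23. The A773 groups had 2 genes with a 3-fold or larger spread at 8 h and 3 at 2 h. This leaves out AN4373 in A773 at 8 h, which ran from 0 to 0.374 FPKM, as a ratio to 0 was not formed.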

How the data were processed

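RNA of A. nidulans mycelium had an integrity number of at least 8 and was made into TruSeq stranded mRNA libraries, per the labels' protocols. The authors deposited 1 table of FPKM values for 10631 genes in 24 libraries. Tools listed without roles in the submitters' processing notes are HTSeq 0.6.0, SAMtools 0.1.18, bcl2fastq 1.8.4, DESeq2 and FastQC. For aligner, genome build and use of strand, the sources used here give nothing. Whole reads were recovered from the FPKM steps for 100.0% of genes (tolerance 0.001), and 8435 of 8457 gene lengths were multiples of 3, hence coding lengths. The genes and the lists were chosen with earlier results of these data known.

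The mean over 8 h and 2 h was compared between strains on log2(FPKM + 1) for 9201 genes (R 4.3.3, limma 3.58.1), in 1 fit of 8 group means with a variance trend, tested on simulated data first. Against A773 this mean contains the 8 h level used in the choice of genes, so those comparisons are descriptive. Adjusted p-values are two-sided and Benjamini-Hochberg corrected over all genes tested, with a threshold of 0.05. A value such as 1.22 ± 0.16 is a log2 difference and its SE, with n = 3 libraries a group. Genes named are the 20 with the largest fall, those with a symbol or in a list, those in rows of neighbours, the 2 largest calls each way per comparison and those next to a threshold. A few more are named as members of a counted group. Names and gene order came from RefSeq (ASM1142v1). Lists of starch, protease, emericellamide and conidiation genes are from general knowledge. Alternatives were other pseudocounts, no filter, median-of-ratios scaling, voom on recovered reads, fits of the compared strains alone, a replicate block and each library left out.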

Additional observations from a re-analysis of the deposited data

Results flagged for a closer look

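In 8 of the 37 genes every library of a recombinant strain at 8 h lay above its libraries at 2 h, while in A773 every library at 8 h lay below those at 2 h. The A773 side follows from the rule, and the difference between the strains was not tested. The share of all genes with such a separation in a recombinant strain was not computed, so the count has no background. All changes are 8 h minus 2 h on the log2(FPKM + 1) scale.

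AN10420 and AN3515, which are neighbours on chromosome II, did so in both AbfA and 1542. AN10420 changed by 1.40 in AbfA and 0.72 in 1542, against −1.70 in A773. AN3515 changed by 1.36 in AbfA and 1.02 in 1542, against −1.55 in A773. AN5558 changed by 1.27 in AbfA, against −1.92 in A773, and AN8624 by 1.18 in AbfA, against −2.29 in A773. In BglC, AN0964 changed by 0.72, AN2548 of the emericellamide list by 0.70 and AN4373 by 0.59, against −1.92, −1.71 and −1.62 in A773. In 1542, AN1338 changed by 0.57, against −2.80 in A773.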

How the results depend on the processing

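The sign was followed for the 2 largest calls each way in each time-averaged comparison, and none of these changed sign under any alternative. Such large differences were the least likely to do so, and the other single-gene differences were not followed. The calls for 1542 minus A773 (7 higher, 8 lower) were 7 and 5 with voom, 7 and 6 with no filter, and 7 and 4 without A773 at 2 h replicate 1 or 2, so which direction held more calls depended on the setting. The rule itself found 53 genes with a pseudocount of 0.1 (32 of the 37 among them), 42 with 0.5 (34), 43 after scaling between libraries (30), and 37 among genes that passed the filter. With single libraries left out it found 28 (without AbfA at 2 h replicate 1) to 46 genes (without A773 at 2 h replicate 3), with 27 and 31 of the 37 among them. The fewest of the 37 were kept without BglC at 2 h replicate 2, where 25 were among 31 genes found. Membership thus depended on single libraries more than the count did. The members called in a time-averaged comparison ran, with single libraries left out, from 14 to 17 for AbfA minus A773, 15 to 22 for BglC minus A773, 11 to 16 for 1542 minus A773, 21 to 24 for BglC minus AbfA, 6 to 14 for 1542 minus AbfA and 29 to 31 for 1542 minus BglC. Members with BglC above both other recombinant strains numbered 9 to 12, and those with BglC below both 9 to 10. No other alternative moved these counts by over 1.5 times.

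Of the genes in the 22 lists, 13 were called between 8 h and 2 h in AbfA (8 to 18 with single libraries left out), 37 in BglC (22 to 47), 20 in 1542 (11 to 31) and 74 in A773 (68 to 82). The count moved by over 1.5 times without AbfA at 8 h replicate 1 or 2 (8 each in AbfA), without BglC at 8 h replicate 2 or 3 (24 and 22 in BglC), and, in 1542, without 1542 at 2 h replicate 3 (13), 1542 at 8 h replicate 1 or 2 (11 and 12) or AbfA at 2 h replicate 1 (31). With only the strain compared in the fit, 22 were called in BglC and 40 in 1542. The cause was not tested.

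Replicate numbers showed no pairing of libraries common to all groups. Over 84 same-numbered pairs of libraries in different groups, the correlation of deviations from the group means was −0.35 to 0.59, with a median of −0.02, and 20 were over 0.1. These pairs pool all strains and times, so a pairing of 8 h with 2 h within a strain was not tested. In BglC, replicate 1 had the highest conidiophore markers at both times. The main fit treats all libraries as independent, so its SE values take no account of such a pairing. With a replicate block, 18, 21, 15, 23, 7 and 32 members were called in the 6 time-averaged comparisons, against 17, 20, 15, 23, 8 and 31 without it. Genes of the lists came to 14, 36, 19 and 77 with the block.

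Depth limits the genes under about 1 FPKM, such as AN3915 and AN4373 in A773 at 8 h. The 3 libraries of a group limit all single-gene calls.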

Other observations

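Other clusters of secondary metabolism in the lists held none of the 37 genes. In A773 at 8 h, 10 of 11 genes of the dba polyketide list, 5 of 5 of the orsellinic acid list and 6 of 7 of the cichorine list were called higher by limma, where 31.4% of all genes were. Their median changes in A773 were 3.09, 3.67 and 2.06 on the log2(FPKM + 1) scale. In 1542 the medians were 1.59, 1.53 and −0.03, and 2, 0 and 0 genes were called higher, where 8.62% of all genes were. The medians were 0.42, 0.51 and 0.02 in AbfA and −0.57, −0.30 and −0.55 in BglC, with 0 genes called. In the terrequinone list 5 of 5 genes were called lower at 8 h in AbfA, 2 in BglC and 4 in 1542, where 8.14%, 10.6% and 9.18% of all genes were. In A773 0 were called lower and 1 higher, where 16.8% and 31.4% of all genes were. Of 15 sterigmatocystin genes tested, 5 were called lower and 1 higher in A773, and of 16 austinol genes 4 and 0. AbfA, BglC and 1542 had 2, 5 and 2 sterigmatocystin genes called lower and 0 austinol genes. The emericellamide list was the one of this kind that held chosen genes.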
